A study of Homo sapiens with 2 samples.

Results

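The genes described here encode the enzymes that build nucleotides: those of pyrimidine synthesis, of purine synthesis, of the folate and serine pathway that supplies carbon units, and of the steps that make deoxynucleotides for DNA. They were taken as a list of 31 genes by name and pathway, with no threshold on their values, and 27 of the 31 were among the 17687 genes with a name in the deposited table. The values came from 2 whole-transcript microarrays of DLD-1, an established human colorectal cancer line. The first culture received 1 siRNA against YY1 (siYY1), a zinc finger transcription factor, and the other received a non-targeting negative control siRNA (siControl). Both siRNAs were used at 5 nmol/L with a lipid reagent in the same serum-containing medium, and RNA was taken after 3 days. The comparison asks which of these genes are expressed differently after YY1 knockdown.

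With 1 array in each group there is no replicate check, no error and no test, and every difference compares these 2 arrays rather than the conditions. Values are log2 expression after quantile normalization of the pair, and the scale was inferred from their range. Differences are siYY1 minus siControl in log2 units, so 1 is a 2-fold higher value in siYY1. The genes compared were 8625 protein-coding genes that on at least 1 of the arrays reached the brightness minimum of 7.60. Across them the difference had a median of -0.01 and an SD of 0.75. No probe set with a single gene name was assigned to YY1, so the depth of the knockdown was not analysed here and the groups rest on the labels. Of 11 colorectal epithelial markers with a name 8 passed the brightness minimum, against 1 of 7 fibroblast, 1 of 7 leukocyte and 0 of 6 endothelial markers. The epithelial keratin KRT8 was at 16.7 in siYY1 and 16.5 in siControl, while the epithelial lectin LGALS4 was dim, at 4.50 and 4.53. The fibroblast and leukocyte markers that passed were COL1A2, at 8.84 in siYY1 and 8.62 in siControl, and CD14, at 6.95 in siYY1 and 7.67 in siControl. The table holds several probe sets for 20 genes. Within such a gene the probe sets gave differences with a median gap of 0.38 and a largest gap of 0.98. Every gene of the list had a single probe set. Since RNA was measured in bulk, fewer cells of a kind and less RNA per cell cannot be told apart.

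Cells obtain nucleotides by building the bases from small precursors or by recycling them. Pyrimidines are assembled as a free ring that is then joined to phosphoribosyl pyrophosphate, whereas purines are built step by step on that sugar phosphate, with formyl groups taken from folate. Ribonucleotide reductase turns ribonucleotides into deoxynucleotides, and thymidylate synthase adds the methyl group that makes thymidylate, again from folate. Dividing tumour cells draw heavily on these pathways, and several of the enzymes are drug targets in colorectal cancer. Many of the genes are known targets of MYC or E2F transcription factors.

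All 27 named genes passed the brightness minimum, and on both arrays every one of them lay above it. As a set they stayed close to 0, with a few genes far out. Only CAD was at least 2-fold higher in siYY1, where 7.97% of all genes compared were, and GART, PAICS and MTHFD1 were at least 2-fold lower, where 9.28% of all genes compared were. The 4 of 27 are 14.8%, near the 17.2% of all genes compared that passed 2-fold either way, so the count is not a result about the set. The median of the 27 was -0.08, with 11 above 0 and 16 below. The 16 are 59.3%, where 50.4% of all genes compared were below 0. Within 0.5 of 0 lay 17 of the 27, or 63.0%, against 52.2% of all genes compared. The spread narrowed with brightness: it had an SD of 0.61 among the 1725 brightest genes compared, which held 16 of the 27, and of 0.83 among the 1725 dimmest. Of the 1725 brightest 10.5% passed 2-fold either way, and of the 16 listed genes there GART, PAICS and MTHFD1 did.

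**Figure D1:**
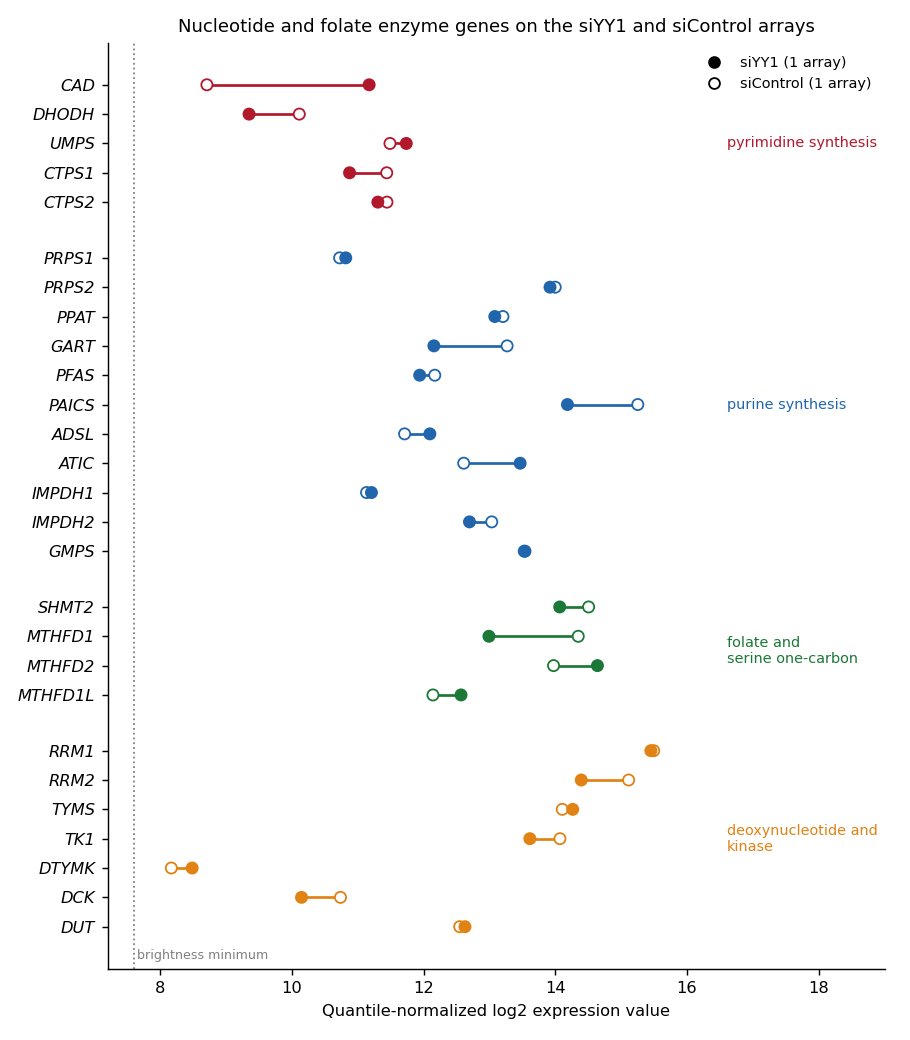
Quantile-normalized log2 values of the 27 named genes, filled points for siYY1 and open points for siControl (1 array each, so no error bars), grouped by pathway. CAD has the widest gap, with siYY1 to the right at 11.2 and siControl at 8.71, while GART, PAICS and MTHFD1 have siYY1 to the left by 1.07 to 1.36.

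Pyrimidine synthesis held the gene farthest from 0. CAD encodes the large fused protein that carries out the first steps of the pathway, from glutamine and bicarbonate to dihydroorotate. Its value was 11.2 in siYY1 and 8.71 in siControl, a difference of 2.46 or 5.52-fold, and only 5 of the 8625 genes compared were higher. The genes of the later steps did not share this size. DHODH, the mitochondrial enzyme that oxidises dihydroorotate to orotate, was at 9.35 in siYY1 and 10.1 in siControl, 1.70-fold lower at -0.76. UMPS, which turns orotate into UMP, was at 11.7 in siYY1 and 11.5 in siControl and differed by 0.25. The CTP synthases turn UTP into CTP. CTPS1, known for its part in proliferating cells, was at 10.9 in siYY1 and 11.4 in siControl, a difference of -0.56, and CTPS2 was at 11.3 in siYY1 and 11.4 in siControl, a difference of -0.14. The 5 genes had a median of -0.14 and a mean of 0.25, opposite signs that rest on CAD.

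The sequence before the CAD start is shown because CAD had the largest difference of the list. It is the plus strand of the 250 bases upstream of the RefSeq start, build GRCh38.p14, with the reverse complement of the NF-Y letters CCAAT in capitals. Neither the YY1 letters CCATNTT nor the E-box CACGTG, to which MYC and MAX bind, was found in the 300-base window that runs from 250 bases before the start to 50 after it.
CAD upstream (chr2:27217119-27217368, plus strand): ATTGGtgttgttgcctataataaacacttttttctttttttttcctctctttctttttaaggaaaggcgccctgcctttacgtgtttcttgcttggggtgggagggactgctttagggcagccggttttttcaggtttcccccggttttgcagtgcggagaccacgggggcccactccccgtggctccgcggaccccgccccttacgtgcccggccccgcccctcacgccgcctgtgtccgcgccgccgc

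Purine synthesis held 2 of the genes that were at least 2-fold lower, next to others near 0. PRPS1 and PRPS2 make phosphoribosyl pyrophosphate, the starting sugar phosphate. PRPS1 was at 10.8 in siYY1 and 10.7 in siControl, a difference of 0.09, and PRPS2 was at 13.9 in siYY1 and 14.0 in siControl, a difference of -0.08. PPAT, the amidotransferase that commits the sugar phosphate to purines, was at 13.1 in siYY1 and 13.2 in siControl and differed by -0.12. After quantile normalization none of these entry enzymes differed by more than 0.13. After median centring PRPS1 was at -0.10, PRPS2 at -0.31 and PPAT at -0.37. GART, a fused protein that carries several early steps, the first formylation among them, was at 12.2 in siYY1 and 13.3 in siControl, 2.16-fold lower at -1.11. PFAS, the amidotransferase between the steps of GART, was at 11.9 in siYY1 and 12.2 in siControl, a difference of -0.23.

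PAICS, a fused protein that adds the carboxylate and the aspartate to the ring made by GART, was at 14.2 in siYY1 and 15.3 in siControl, 2.10-fold lower at -1.07. Of the 8625 genes compared 614 were lower than GART and 672 lower than PAICS, so neither size was rare on these arrays. ADSL, the lyase that follows PAICS, was at 12.1 in siYY1 and 11.7 in siControl and differed by 0.38. ATIC, which adds the last formyl group and closes the ring to IMP, was at 13.5 in siYY1 and 12.6 in siControl, 1.81-fold higher at 0.86. GART and ATIC are the enzymes of the pathway that use formyl-folate, and they lay on opposite sides of 0. From IMP the route divides. IMPDH1 and IMPDH2, which lead toward GMP, were at 11.2 in siYY1 and 11.1 in siControl and at 12.7 in siYY1 and 13.0 in siControl, with differences of 0.07 and -0.34. GMPS, which completes GMP, was at 13.5 on both arrays, a difference of -0.01. ADSS2, of the branch toward AMP, was not among the named genes and was not analysed here. The 11 purine genes had a median of -0.08, with 4 above 0 and 7 below.

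PPAT and PAICS are neighbours on chromosome 4 that are transcribed away from each other, and in RefSeq the nearest pair of their starts lies 137 bases apart. PAICS differed by -1.07 and PPAT by -0.12, so the genes on either side of this stretch differed by unequal amounts. The stretch between these starts is shown on the plus strand, which is the PAICS strand, and it held none of the letters searched, so nothing is in capitals. The table also lists 2 other PAICS starts.
PPAT to PAICS (chr4:56435616-56435751, plus strand): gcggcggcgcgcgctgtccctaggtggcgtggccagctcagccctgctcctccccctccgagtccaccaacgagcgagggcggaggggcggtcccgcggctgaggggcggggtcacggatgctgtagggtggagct

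A search for other genes that start within 1000 bases of a listed gene on the opposite strand, pointing away from it, found AFMID beside TK1 and ING5 beside DTYMK among the named genes. AFMID, which encodes kynurenine formamidase, starts 158 bases from TK1 and was at 6.06 in siYY1 and 8.30 in siControl, 4.72-fold lower at -2.24, and its siYY1 value was under the brightness minimum. TK1 itself differed by -0.46. ING5, a subunit of histone acetyltransferase complexes, starts 205 bases from DTYMK and differed by 0.70, where DTYMK differed by 0.32. Members of the 3 pairs thus had the same sign but differed in size by 0.38 to 1.78.

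In the folate and serine pathway the cytosolic MTHFD1 was at least 2-fold lower and 2 of 3 mitochondrial enzymes had values above 0. MTHFD1 encodes the cytosolic protein that interconverts and makes the folate forms used for purines and thymidylate. It was at 13.0 in siYY1 and 14.3 in siControl, 2.56-fold lower at -1.36 and the lowest of the 27 genes, with 353 of the 8625 genes compared lower still. The mitochondrial enzymes that pass carbon units on to formate were on the other side. MTHFD2, a mitochondrial dehydrogenase and cyclohydrolase known for high levels in tumours, was at 14.6 in siYY1 and 14.0 in siControl, 1.59-fold higher at 0.67. MTHFD1L, the mitochondrial formate-producing synthetase, was at 12.6 in siYY1 and 12.1 in siControl, 1.34-fold higher at 0.43. SHMT2, which takes the carbon from serine in mitochondria, went the other way at 14.1 in siYY1 and 14.5 in siControl, a difference of -0.44, so the mitochondrial enzymes did not share a side. SHMT1, the cytosolic form, was not among the named genes and was not analysed here. The 4 genes had a median of -0.01.

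The sequences before MTHFD1 and GART are shown because these genes and PAICS were the lowest of the list. Capitals mark the E-box letters CACGTG and the NF-Y letters CCAAT or their reverse complement ATTGG. Each is the gene's own strand in RefSeq, build GRCh38.p14, up to the base before the start. MTHFD1 has 250 bases. GART has 145, which end at the nearest start on the other strand.
MTHFD1 upstream (chr14:64388103-64388352, plus strand): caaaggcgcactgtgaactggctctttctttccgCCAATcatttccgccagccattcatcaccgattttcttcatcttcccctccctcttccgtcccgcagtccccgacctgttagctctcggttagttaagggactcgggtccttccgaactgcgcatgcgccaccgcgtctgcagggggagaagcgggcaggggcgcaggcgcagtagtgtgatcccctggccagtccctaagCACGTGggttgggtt
GART upstream (chr21:33542893-33543037, minus strand): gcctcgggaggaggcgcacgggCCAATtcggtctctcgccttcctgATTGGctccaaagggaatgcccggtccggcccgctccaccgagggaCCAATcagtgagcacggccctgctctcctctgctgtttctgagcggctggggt

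No gene of the deoxynucleotide steps reached 2-fold. Ribonucleotide reductase has a large and a small subunit, and the small one is made in S phase. RRM1, the large subunit, was at 15.4 in siYY1 and 15.5 in siControl, a difference of -0.04. RRM2, the S phase small subunit, was at 14.4 in siYY1 and 15.1 in siControl, 1.65-fold lower at -0.72. RRM2B, the small subunit that p53 induces, is outside the list and differed by -0.30. TYMS, thymidylate synthase and the target of fluorouracil, was at 14.3 in siYY1 and 14.1 in siControl, a difference of 0.16. DUT, which removes dUTP and supplies dUMP, was at 12.6 in siYY1 and 12.5 in siControl and differed by 0.08.

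TK1 and DCK, kinases that salvage deoxynucleosides, were lower by less than 2-fold. TK1, the cytosolic thymidine kinase, was at 13.6 in siYY1 and 14.1 in siControl, a difference of -0.46. DCK, which phosphorylates deoxycytidine and activates gemcitabine, was at 10.1 in siYY1 and 10.7 in siControl, 1.51-fold lower at -0.59. DTYMK, which phosphorylates thymidylate, was at 8.48 in siYY1 and 8.17 in siControl, a difference of 0.32, and it was the only listed gene among the 1725 dimmest. NME1 and NME2, the main nucleoside diphosphate kinases, were not among the named genes and were not analysed here. The 7 genes had a median of -0.04, with 3 above 0 and 4 below.

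**Figure D2:**
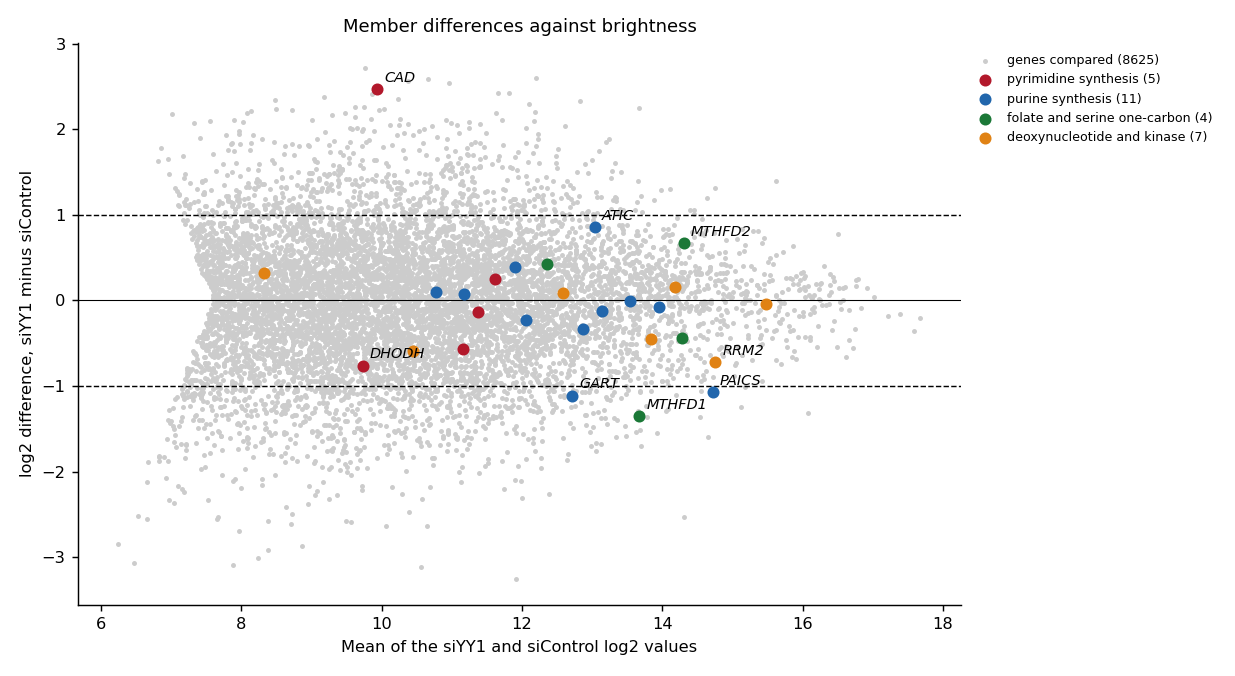
The log2 difference, siYY1 minus siControl, against the mean of the 2 log2 values for the 8625 genes compared (grey) and the 27 listed genes (coloured by pathway), with dashed lines at 2-fold. CAD stands among the highest genes at 2.46, and GART, MTHFD1 and PAICS lie just below -1 at the bright end.

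Replication genes gave a background for the deoxynucleotide steps. Of 34 S phase genes compared 7 were lower by 2-fold or more and 2 were higher by as much, with a median of -0.30. Of all genes compared 9.28% were lower and 7.97% higher by as much. Past 2-fold either way were 26.5% of the S phase genes, against 17.2% of all genes compared. PRIM2, a primase subunit, was the farthest at -2.26, followed by GINS4, part of the replicative helicase, at -1.97, POLE, the leading-strand polymerase, at 1.86 and the helicase subunit MCM5 at -1.47. The deoxynucleotide genes, many of them made in S phase, ranged from -0.72 to 0.32 on the same arrays. Whether cell cycle phase had a part in these values was not tested.

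Several enzymes have a paralog on the array, and paralogs can share probe signal, so their values are uncertain as single genes. MTHFD1 and MTHFD1L lay 1.78 apart, on opposite sides of 0. The gaps were smaller for CTPS1 and CTPS2, with CTPS1 lower by 0.43, and for IMPDH1 and IMPDH2, with IMPDH1 higher by 0.41. RRM2 differed from RRM2B by -0.42. PRPS1 and PRPS2 lay 0.17 apart. Of these gaps only that of MTHFD1 and MTHFD1L was well above the median gap of 0.38 between probe sets of 1 gene. The largest gap between probe sets of 1 gene was 0.98.

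Among the genes compared, those that recycle nucleosides and bases lay mostly below 0. Of 13 in the salvage list 8 were compared, 7 of them below 0, with a median of -0.49. That is 87.5% below 0, against 50.4% of all genes compared. TK2 at 0.35 and UPP1 at 0.08, too dim to be compared, were above 0. DGUOK, the mitochondrial deoxyguanosine kinase, was at 10.1 in siYY1 and 11.2 in siControl, a difference of -1.09. It was the only 1 of the 8 past 2-fold, or 12.5%, against 17.2% of all genes compared. ADK, adenosine kinase, differed by -0.83, the purine phosphorylase PNP by -0.82, APRT by -0.59 and HPRT1, which rescues hypoxanthine and guanine, by -0.33. SLC29A1, a nucleoside transporter, was the only gene compared above 0, at 0.16. The 7 nucleotide kinases compared had a median of 0.01, which was -0.16 as deposited, with no gene past 2-fold.

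Nucleotide breakdown and pool control gave a median of -0.13 over 12 genes, of which 1 was past 2-fold on either side. These are 16.7% of the list, near the 17.2% of all genes compared. NT5E encodes CD73, the surface enzyme that turns AMP into adenosine. It was at 14.0 in siYY1 and 12.5 in siControl, 2.84-fold higher at 1.51. DCTPP1, which hydrolyses dCTP and related nucleotides, was at 12.4 in siYY1 and 13.5 in siControl, 2.10-fold lower at -1.07. SAMHD1, a deoxynucleotide hydrolase, differed by -0.16.

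Folate uptake and serine synthesis had 3 of 8 and 1 of 5 genes compared past 2-fold, where 17.2% of all genes compared were. Of the 8 folate genes 2 were lower by 2-fold or more and 1 was higher by as much, with a median of -0.44. SLC19A1, the reduced folate carrier, was at 12.5 in siYY1 and 11.4 in siControl, a difference of 1.11 that was under 2-fold as deposited, at 0.97. FPGS, which adds the glutamate tail that keeps folate in the cell, was at 9.37 in siYY1 and 10.5 in siControl, a difference of -1.13. MTRR, which reactivates methionine synthase, was at -1.01, just under 2-fold with loess, and GGH, which removes the glutamate tail, at -0.61. All 5 genes compared of serine synthesis and glycine cleavage were below 0, with a median of -0.82. PHGDH, the entry enzyme of serine synthesis, differed by -1.04, PSAT1 by -0.95 and PSPH by -0.82, and of the glycine cleavage proteins DLD was at -0.76 and GCSH at -0.59. Over all genes compared 50.4% were below 0. MTHFD2, which like PHGDH and PSAT1 is a known target of ATF4, lay on the other side at 0.67. SHMT2, of the same pathway as MTHFD2, was below 0 at -0.44. No list of ATF4 targets was compared, and whether ATF4 had a part in these values was not tested.

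**Figure D3:**
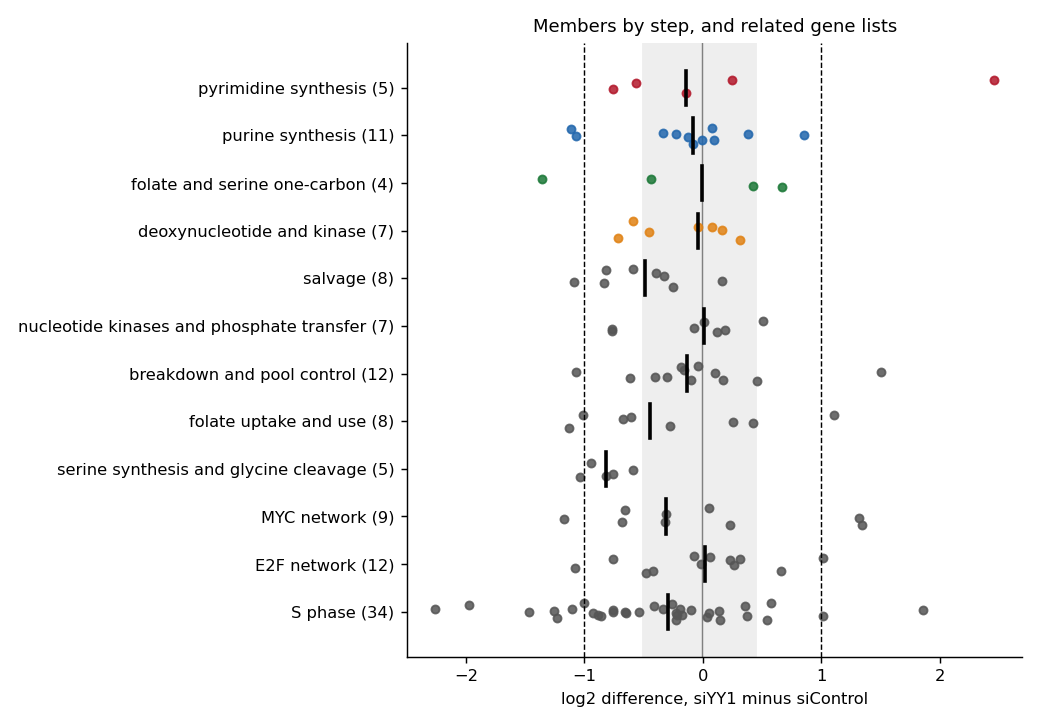
Log2 differences, siYY1 minus siControl, of the listed genes by pathway (coloured) and of related gene lists (grey points), 1 point per gene compared, with counts in brackets. Black bars are medians, the shaded band holds the middle 50% of all genes compared and dashed lines mark 2-fold. The salvage list, at -0.49, and the serine list, at -0.82, have the lowest medians, and the pathway groups have medians between -0.14 and -0.01.

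Genes of the MYC and E2F transcription factor networks, repressors among them, were compared too. MYC was at 13.2 in siYY1 and 13.5 in siControl and differed by -0.31, and its partner MAX by -0.66. Past 2-fold in that network were the repressor MNT at 1.34, MLXIP, a glucose-responsive factor, at 1.32 and its partner MLX at -1.17. E2F1 differed by -0.07. In the E2F network E2F3 was at 1.02, under 2-fold as deposited at 0.91, and the pocket protein RBL2 was at -1.08. The 9 MYC network genes had a median of -0.31 and the 12 of the E2F network a median of 0.02, which turned negative as deposited, at -0.07. Past 2-fold were 33.3% of the MYC network genes and 16.7% of the E2F network genes, against 17.2% of all genes compared.

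Promoter letters were searched on both strands of the RefSeq windows, which cover 250 bases before to 50 after each start and matched 24 of the 27 genes. The YY1 letters CCATNTT were found for 5 of the 24, or 20.8%, against 21.8% of the genes compared that have a window and 15.6% of all 35116 windows. These genes were GART at -1.11, PAICS at -1.07, RRM1 at -0.04, DUT at 0.08 and PRPS1 at 0.09, so 2 were past 2-fold and 3 were near 0. Over all genes compared the median was -0.03 with the letters and -0.02 without. A longer form of the YY1 motif, which contains a match to these letters, was in 0 of the 24 and in 0.849% of all windows. The matches are shown in capitals with up to 9 bases on either side, on the strand of the gene. They lie 38 bases after the outermost start in GART, 5 in PRPS1, 22 in the second RRM1 match and 6 in PAICS, where the start is the farthest upstream of its 3. That PAICS start, at 56410507 on chromosome 4, is not the start beside PPAT, which is at 56435752. The first RRM1 match lies 73 bases before the start, and the DUT match 185 bases before 1 of its 4.
GART (chr21:33542840-33542863, minus strand): ctatgtccgCCATGTTagtgtctg
PAICS (chr4:56410504-56410528, plus strand): gtcactttcAACATGGagagtggag
RRM1, the first (chr11:4094603-4094627, plus strand): cccacacaaAACATGGtagcaggag
RRM1, the second (chr11:4094698-4094722, plus strand): cccagactcAACATGGcggctacac
DUT (chr15:48331230-48331254, plus strand): actctcggaAAAATGGgggccagag
PRPS1 (chrX:107628506-107628530, plus strand): cgggaatgtAAGATGGcggagtagc

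E-box letters CACGTG were found for 7 of the 24 genes, or 29.2%, against 13.2% of the genes compared that have a window and 7.26% of all windows. Their values ran from MTHFD1 at -1.36 and PAICS at -1.07 through DHODH at -0.76, DCK at -0.59 and PPAT at -0.12 to MTHFD1L at 0.43 and ATIC at 0.86. Genes with the letters thus lay on both sides of 0, with a median of -0.59, against -0.01 for the 17 without. Over all genes compared the medians were -0.05 with the letters and -0.02 without. PPAT and PAICS share 1 E-box, which lies 182 bases before the PPAT start and 40 after the PAICS start. The E-boxes are shown in capitals for the genes at either end of the range, since these carry the same letters with opposite differences.
MTHFD1 (chr14:64388329-64388352, plus strand): gtccctaagCACGTGggttgggtt
PPAT and PAICS, PPAT strand (chr4:56435783-56435806, minus strand): ggagatttcCACGTGcagcaaata
DHODH (chr16:72008576-72008599, plus strand): gctactgcgCACGTGcacccaacc
MTHFD1L (chr6:150866323-150866346, plus strand): gcccggctcCACGTGcgcagccgg
ATIC, the first (chr2:215312004-215312027, plus strand): ccggcgggcCACGTGataagcccg
ATIC, the second (chr2:215312079-215312102, plus strand): ctacctgcgCACGTGgtgccgccg

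The other letters gave no common side either. CCAAT was found for 11 of the 24 genes, or 45.8%, against 44.0% of the genes compared, with medians of -0.04 with the letters and -0.08 without. The E2F letters TTTGGCGC were found for GART, DCK and DUT, or 12.5% against 1.36% of the genes compared, and TTTCCCGC for PRPS2, TYMS and DUT, or 12.5% against 3.58%. Of these 5 genes only GART passed 2-fold. Its match lies 245 bases before the start at 33542117 on chromosome 21, which is not the outermost start, at 33542892. Across the 27 genes the difference had a Spearman rho of -0.11 with the genomic span of the gene and -0.19 with its mean level, and across all 8625 genes compared the values were 0.10 and 0.02. These are descriptions across genes, which share the 2 arrays and are not independent replicates.

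The scaling of the pair moved most of the differences, by amounts that varied between genes. The median of all genes compared was -0.01 after quantile normalization, -0.13 as deposited and -0.21 after centring on the medians, and the share of higher genes among those past 2-fold was 46.2%, 33.6% and 26.1%. The median of the 27 listed genes, -0.08, was 0.07 below that of all genes compared, and it was 0.11 below as deposited. CAD, GART, PAICS and MTHFD1 stayed past 2-fold on the same side in all 4 scalings. CAD ran from 2.27 to 2.47, and MTHFD1 from -1.56 to -1.36. PRPS1, IMPDH1, TYMS and DUT, all within 0.16 of 0, changed sign with the scaling, and the other 23 genes did not.

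**Figure D4:**
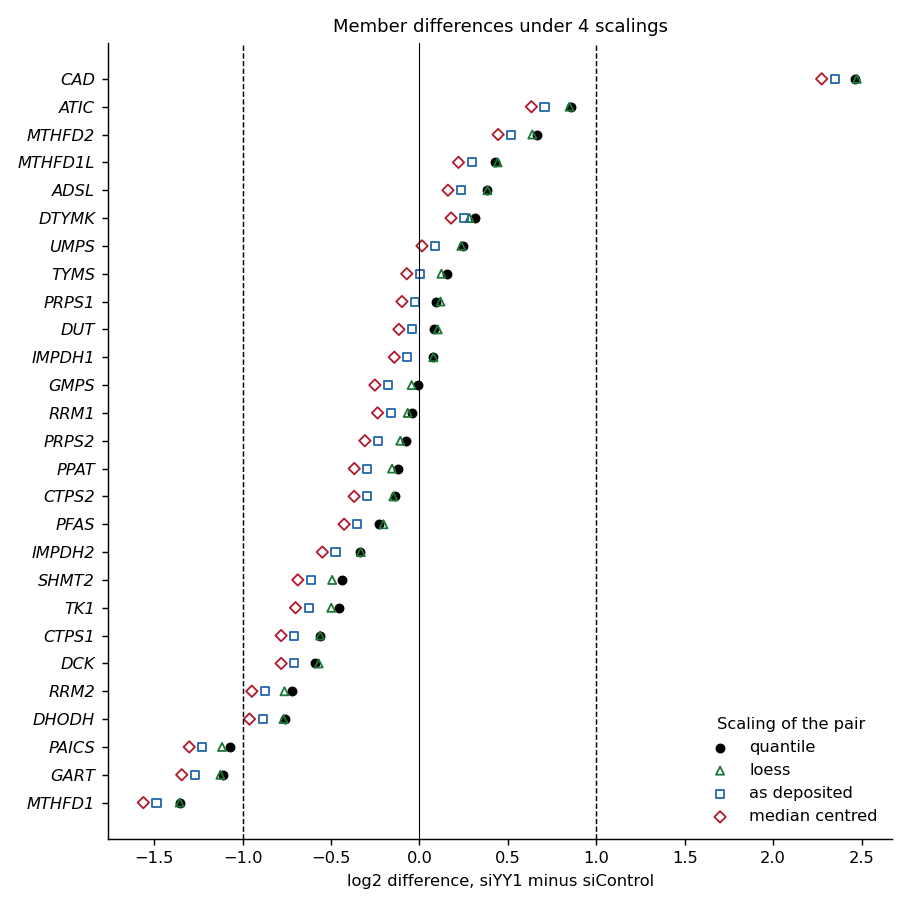
Log2 difference, siYY1 minus siControl, of each of the 27 genes under 4 scalings of the pair of arrays, ordered by the quantile-normalized value, with dashed lines at 2-fold. CAD stays between 2.27 and 2.47, MTHFD1, GART and PAICS stay beyond -1, and the values as deposited or median centred lie to the left of the others.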

How the data were processed

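Total RNA of 2 DLD-1 cultures, siYY1 and siControl, was made into biotin-labelled sense cDNA for a GeneChip WT array, as the labels' protocols state. The authors deposited 1 value per probe set and array, 21448 in all, taken here as log2 expression because they ran from 2.51 to 17.9. The sources used here give no software, background correction or scaling for these values. For the pair, the 25th, 50th and 75th percentiles of the deposited values differed by 0.18, 0.07 and -0.13 (siYY1 minus siControl), so the pair was quantile normalized.

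A platform annotation table named exactly 1 gene for 17709 probe sets. The other 3739, with no gene name or with more than 1, were left out. All 17687 genes were matched by gene ID to RefSeq GRCh38.p14, which gave symbols, gene type and span. Probe sets of a gene were averaged. Genes compared were protein-coding genes whose higher value was at least 7.60, the median of that value over all named protein-coding genes. With 1 array per group no test was possible and the precision is limited by the number of arrays, so genes were counted at 2-fold. Every listed gene is named, with up to 4 genes past 2-fold of each related list by size. Other genes of those lists, and the neighbours of the listed genes, were named after their values were seen. The members and lists were chosen with earlier results of these data known. Promoter windows came from RefSeq GRCh38.p14. Alternatives were other scalings (as deposited, median centring, loess with a span of 0.3), the brightest probe set, other brightness filters, 1.5-fold and 3-fold thresholds, and the list without CAD. The computation was tested on simulated data. The computation used numpy 2.4.6 and pandas 2.3.3 under Python 3.11.15, with lowess from statsmodels 0.14.6, rank correlations from scipy 1.17.1 and plots from matplotlib 3.10.9.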

Additional observations from a re-analysis of the deposited data

How the results depend on the processing

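No paired analysis was possible because each group was a single array. The median of the listed genes, -0.08, was -0.31 after median centring, -0.23 as deposited, -0.11 with loess and -0.10 without CAD. It could not move with the brightest probe set, no brightness filter or a filter on the mean level, since every listed gene has 1 probe set and passes these filters. The medians of the 4 pathway groups were below 0 in the 4 scalings, from -0.37 to -0.01. The median of all genes compared was also below 0 in each, from -0.21 to -0.01. The count of genes at least 2-fold higher was 1, and it was 3 at 1.5-fold and 0 without CAD. The count at least 2-fold lower was 3, and it was 6 at 1.5-fold and 0 at 3-fold. At 1.5-fold 19.5% of all genes compared were higher and 21.8% lower. At 3-fold 1.9% of them were higher and 2.41% lower. With the minimum at the 75th percentile of brightness 25 of the 27 genes were compared, DHODH and DTYMK dropping out, and the pyrimidine median turned positive, at 0.05 against -0.14, and the deoxynucleotide median was -0.25, against -0.04. Without a brightness filter the median of the folate uptake list was -0.15, against -0.44, and that of the salvage list -0.36, against -0.49. The comparisons with protein length and of protein identity between paralogs were not run, since protein sequences were not used here. With 1 array per group, neither replicate spread nor a technical batch could be assessed.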
